A study of Cunninghamia lanceolata with 18 samples.

Results

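This section describes 137 genes of Chinese fir (*Cunninghamia lanceolata*) that had no counts in any library of clone C1 and at least 10 counts in every library of clone C11. They were chosen by these counts from a table of 46723 genes, of which they make up 0.293%. RNA-seq was run on the apical bud (AB), the upper phloem next to it (UP) and the lateral bud (LB) of both clones, which gave 18 libraries, 3 for each tissue of each clone. C11 and C1 are untreated clones from a field test of superior trees, chosen by the study for their unlike internode lengths, and each was sampled when its lateral buds appeared. The day of collection therefore goes with the clone, and day and clone cannot be told apart. The labels name the clones and do not say whether all libraries of a clone come from trees of 1 genotype. They also do not say what the replicate numbers 1 to 3 of a tissue stand for. The paper describes the replicates as biological, from individuals picked at random within each clone for its hormone measurements. Whether a number marks the same tree in the 3 tissues is not stated, so p-values measure the spread between these libraries.

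A clone is a set of trees multiplied from 1 parent by cuttings, so its members should share a genome, while clones of an outcrossing conifer differ at many sites. Genotypes of a plant species can differ in the presence of a whole gene, in its sequence or in whether it is transcribed. RNA-seq counts poly(A) RNA fragments that align to 1 reference genome, so a gene without counts may be missing from the sampled genome, may be silent, or may differ so much from the reference that its reads do not align. These cannot be told apart from the counts, and "silent" here means only that no counts were recorded. In bulk tissue, fewer cells of a type and less RNA per cell also cannot be told apart.

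The table holds identifiers of 2 forms, beginning with Cula or with NewGene, and the sources used here do not say what sets them apart. The deposited table does not pair either form with a gene function, and none of the 137 genes is named with a function below. For the same reason the labelled tissues could not be checked against marker genes. Gene lengths are not in the table, so levels are compared between libraries for 1 gene and not between genes. Near-identical family members could share or split reads, and the sources used here do not say how such reads were treated.

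The libraries held 24766529 to 32005160 counts. In the C11 libraries, the third UP library stood apart from the rest. Values that rest on it are given with and without it below.

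Fold differences between the clones restate the rule and are given as lower bounds without a test. The 9 C1 libraries together allow up to 3 counts where 0 were seen, which is 0.0110 CPM (counts scaled to a common library size). Against this floor, the mean CPM over the 9 C11 libraries was at least 51.2-fold to at least 26342-fold higher in C11, with a median bound of 251-fold over the 137 genes. Their mean levels in C11 ran between 0.561 and 289 CPM, with a median of 2.75 CPM. These bounds cover counting error only.

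Most of the genes were expressed at modest levels. The median count over the 9 C11 libraries was under 50 for 52 genes, at least 100 for 45 genes and at least 1000 for 3 genes. The lowest of the 9 counts lay between 10 and 19 for 56 genes, between 20 and 49 for 44, between 50 and 99 for 17 and at 100 or more for 20. The map of counts by library shows this range beside the empty C1 columns.

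**Figure D1:**
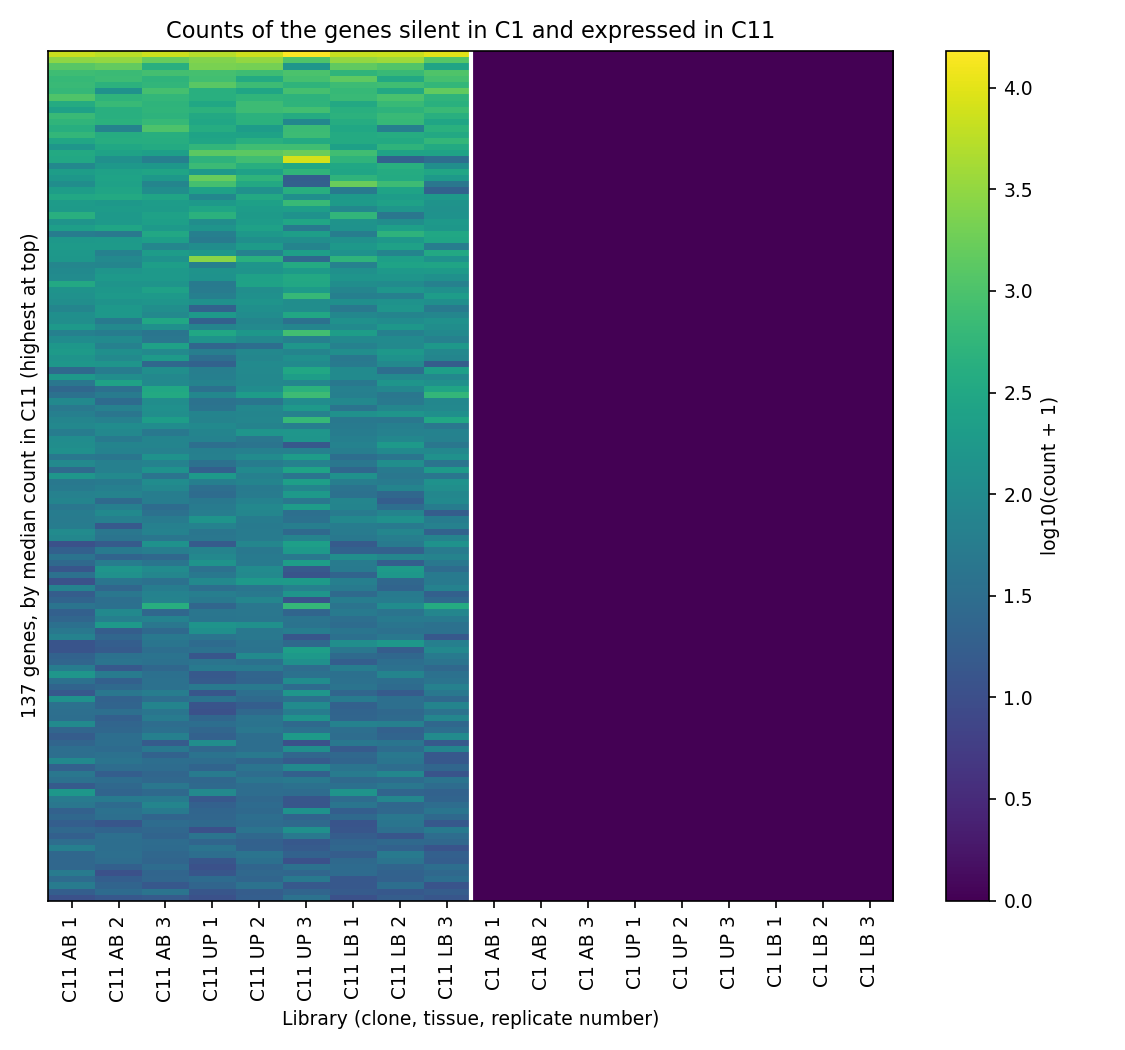
Counts of the 137 genes, on a log10(count + 1) colour scale, in the 9 C11 libraries (left) and the 9 C1 libraries (right), with 1 row per gene ordered by its median C11 count. All C1 cells are at 0, as the rule requires, while the C11 cells run from 10 to 15201 counts.

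The locus with the highest counts was NewGene_3214. It had 7102, 5519 and 7330 counts in the C11 AB libraries, 5289, 7166 and 15201 in the UP libraries and 6807, 7085 and 10192 in the LB libraries, against 0 in each C1 library. The third UP library was the highest and the first UP library the lowest by count, and the 3 tissues overlapped. Its mean was 289 ± 112 CPM in C11 (SD, n = 9), at least 26342-fold higher in C11.

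Cula0012397 came next, with 2970, 3168 and 1595 counts in AB, 2462, 3192 and 1087 in UP and 3186, 3668 and 1208 in LB of C11, and with none in C1. In each tissue the third library was the lowest. The mean in C11 was 90.8 ± 34.8 CPM (SD, n = 9), which is at least 8282-fold higher in C11.

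Cula0003137 had 1266, 1476 and 432 counts in AB, 2183, 2067 and 154 in UP and 1434, 1102 and 278 in LB of C11. Again the third library of each tissue was the lowest, and it lay below all 6 others. Its C11 mean of 42.2 ± 27.5 CPM (SD, n = 9) was at least 3849-fold above the C1 floor.

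The limits of the rule fell within a continuous range of counts. At the lower edge 9 of the 137 genes had a minimum of exactly 10. Cula0036209 ran between 10 and 230 counts in C11 with a median of 52, Cula0031003 between 10 and 187 with a median of 49, and Cula0024880 between 10 and 57 with a median of 33. Just outside, 9 genes without counts in C1 had a minimum of 9. Cula0025055 had 9 to 368 counts in C11 with a median of 127, NewGene_17057 had 9 to 127 with a median of 40, and NewGene_11011 had 9 to 75 with a median of 29.

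On the C1 side, 26 genes had at least 10 counts in every C11 library and between 1 and 3 counts in the 9 C1 libraries together, 7 of them with a single count. Cula0017089 had 861 to 4442 counts per library in C11, with a median of 1787, and 2 counts in all of C1. Cula0003360 had 576 to 3106 counts in C11, with a median of 1068, and 3 in C1. Cula0004320 had 203 to 1718 counts in C11, with a median of 804, and 1 in C1. Genes with high counts in C11 thus stood just outside the rule because of 1 to 3 reads in C1.

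NewGene identifiers made up a larger share of the 137 genes than of the table. Of the 137 genes, 75 (54.7%) carried a NewGene identifier and 62 a Cula identifier, while NewGene loci were 9498 of the 46723 genes in the table (20.3%). Among the 19206 genes with at least 10 counts in all 9 C11 libraries, 2097 (10.9%) were NewGene loci. Read the other way, 3.58% of these NewGene loci and 0.362% of these Cula genes had no counts in C1. The median of the genes' median C11 counts was 53 for the NewGene loci and 67.5 for the Cula genes.

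The opposite pattern had a similar size and make-up. With the clones exchanged in the rule, 124 genes had at least 10 counts in every C1 library and none in C11, and 76 of them (61.3%) were NewGene loci.

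The 137 genes were compared with 2 lists of the study, and its full lists of hormone-related genes were not compared here. Of the genes that the study names with an identifier in its text or among its network hubs, 47 were in the table and 0 were among the 137. The study's text prints identifiers beginning with Cl or NG, so this count depends on how they were matched to the table. Over the 19206 genes with at least 10 counts in all C11 libraries, 0.713% were among the 137, so 0 of 47 is near that share. The 47 were not filtered by that minimum. The pink module, a co-expression group that the study related to hormone levels, has 981 genes in the table and 0 among the 137. For comparison, 653 of the 19206 genes with at least 10 counts in all C11 libraries (3.40%) belonged to the module. The study chose these lists on the same libraries. The module groups genes by co-expression, and the rule fixes a shared pattern of the 137 genes between the clones. The absence from the module is therefore not independent of the rule.

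Levels within C11 varied more than those of other genes expressed there. The coefficient of variation of CPM over the 9 C11 libraries had a median of 55.8% over the 137 genes and 38.2% over the 19206 genes with at least 10 counts in all C11 libraries. Without the third UP library the medians were 47.2% and 34.4%. The 124 genes silent in C11 had a median of 34.5% over the 9 C1 libraries, against 23.8% for all genes with at least 10 counts in each of them. The minimum of 10 counts applied to both sets of each pair, but the sets were not matched for level. The coefficient of variation depends on the level, so whether the difference goes beyond level was not tested.

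The highest CPM of a gene was 1.31 to 443 times its lowest in C11, with a median of 5.57. This ratio was under 2 for 6 genes and at least 10 for 35 genes, or 19 genes without the third UP library.

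NewGene_17998 was the steadiest of the 137. It had 114, 140 and 148 counts in AB, 124, 145 and 110 in UP and 119, 137 and 120 in LB of C11, and its coefficient of variation was 8.32%. Its CPM stayed between 4.04 and 5.28 in all 9 libraries, with the tissues and numbers overlapping. NewGene_6094 was second, with 95, 149 and 173 counts in AB, 142, 145 and 189 in UP and 123, 175 and 192 in LB. Its CPM ran between 3.74 and 6.94 (coefficient of variation 18.1%).

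At the other end, Cula0002046 had 317, 124 and 62 counts in AB, 511, 799 and 8052 in UP and 519, 20 and 32 in LB. It was highest in the third UP library, at 296 CPM, and lowest in the second LB library, at 0.667 CPM. The spread (coefficient of variation 224%) thus rested mainly on 1 library. Cula0008659 had 161, 91 and 135 counts in AB, 2775, 456 and 26 in UP and 520, 227 and 136 in LB. Here the first UP library was highest, at 107 CPM, and the third UP library lowest, at 0.954 CPM (coefficient of variation 177%).

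The third UP library of C11 held more counts of these genes than the others. The 137 genes took 0.190% of all its counts, against 0.0872% to 0.112% in the other 8 C11 libraries. Of its 50950 counts of the 137 genes, NewGene_3214 held 15201 and Cula0002046 held 8052. Without NewGene_3214, the summed CPM of the genes was 1312 in this library and 690 to 1032 in the other 8. The third UP library was the library of highest CPM for 54 of the 137 genes (39.4%), and for 22.5% of the 19206 genes with at least 10 counts in all C11 libraries. It was the library of lowest CPM for 20 of the 137 (14.6%), and for 23.5% of the 19206. After centring each gene over the 9 libraries, the median log2 deviation of the 137 genes was 0.35 in this library and between -0.18 and 0.07 in the others.

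**Figure D2:**
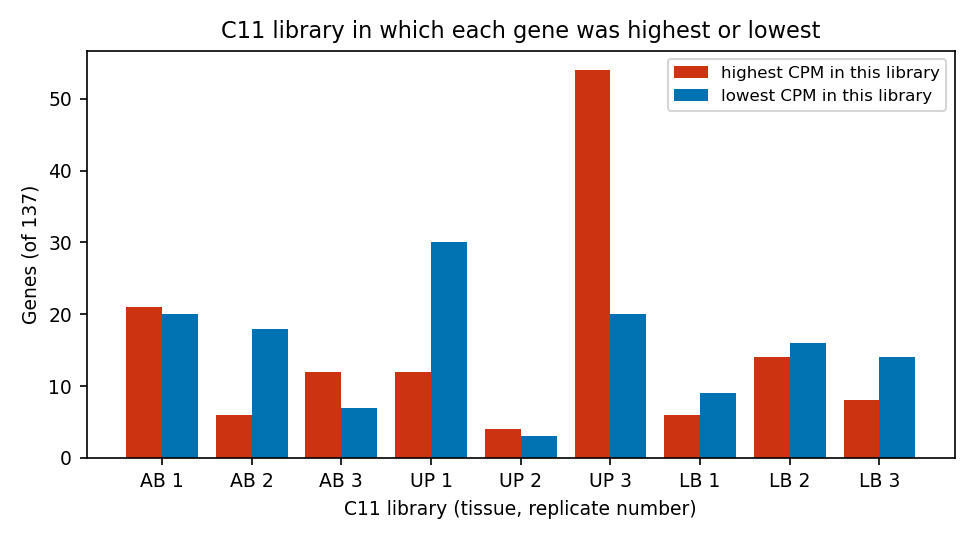
Number of the 137 genes with their highest CPM (red) and lowest CPM (blue) in each of the 9 C11 libraries, named by tissue and replicate number. The third UP library holds the highest value of 54 genes, while the next, the first AB library, holds that of 21.

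Whether these genes differed between the tissues of C11 was tested in the 9 C11 libraries by quasi-likelihood in edgeR. The rule did not use this contrast beyond the minimum of 10 counts. Among the 25473 genes tested, which included all 137, 0 genes passed an adjusted p under 0.05 with a fold change of at least 2 in UP against AB, in UP against LB or in LB against AB, so that 0.0% of all genes and 0 of the 137 were called. An unadjusted p under 0.05 was reached by 15 of the 137 genes (10.9%) in UP against AB, by 12 (8.76%) in UP against LB and by 3 (2.19%) in LB against AB. Among all genes tested the shares were 7.40%, 5.63% and 0.875%. A fit with the number as a replicate block also called 0 genes in the 3 contrasts, and an unadjusted p under 0.05 was then reached by 18 (13.1%), 14 (10.2%) and 4 (2.92%) of the 137, against 13.8%, 9.72% and 3.81% of all genes tested. The shares of the 137 above those of all genes in the fit without the block were thus near or below them with it.

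In direction, the 137 genes leaned towards UP. The log2 fold change of UP over AB was positive for 83 of them (60.6%; 53.6% of all genes tested), with a median of 0.23 (0.05 over all genes tested). For UP over LB it was positive for 85 (62.0%; 50.5% of all), with a median of 0.22 (0.01 over all). For LB over AB it was positive for 68 (49.6%; 50.4% of all), with a median of -0.01 (0.00 over all). Without the third UP library, 64 genes (46.7%; 47.0% of all) were positive in UP over AB and 60 (43.8%; 44.8% of all) in UP over LB. The medians were then -0.07 and -0.14, against -0.04 and -0.08 over all genes tested. With all 3 libraries of number 3 left out, 66 genes (48.2%; 46.6% of all) were positive in UP over AB, with a median of -0.02 (-0.04 over all), and 74 (54.0%; 46.5% of all) in UP over LB, with a median of 0.05 (-0.04 over all). The mean was highest in UP for 66 genes, in AB for 47 and in LB for 24. Without the third UP library it was highest in UP for 46, in AB for 52 and in LB for 39. No shares over all genes are given for these counts of highest means, so they do not bear on the lean. The fits above did not use the replicate block. With it and all 9 libraries, 83 genes (60.6%; 52.2% of all) were positive in UP over AB. In UP over LB 82 (59.9%; 50.2% of all) were positive, and in LB over AB 61 (44.5%; 47.2% of all).

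**Figure D3:**
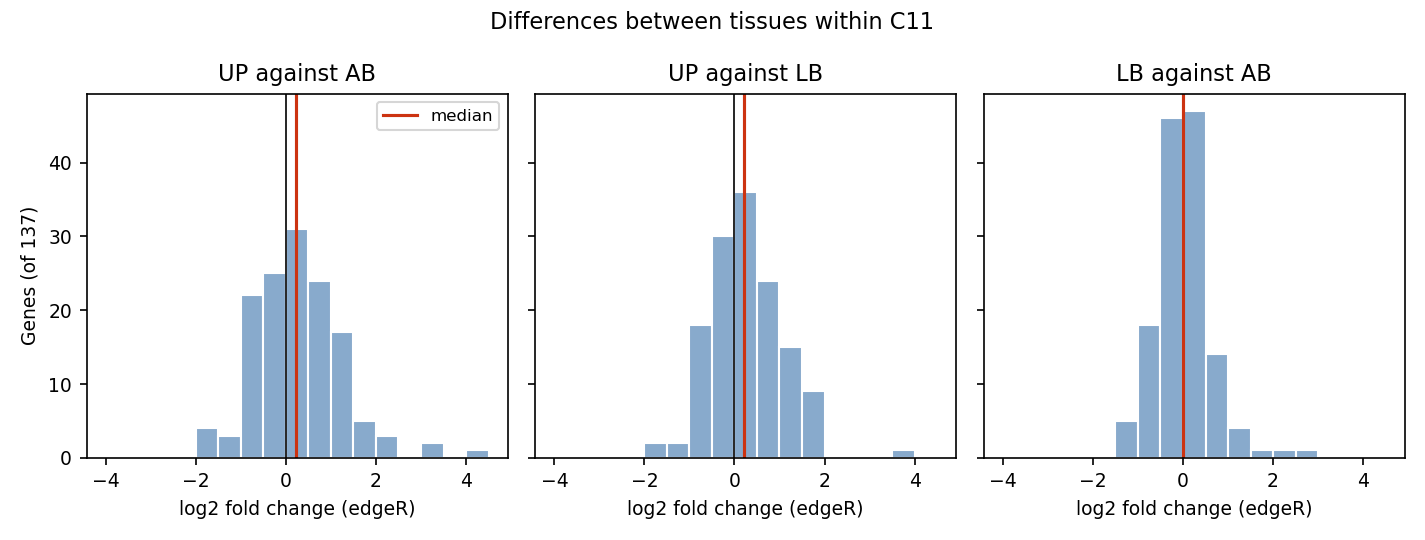
Distribution of the log2 fold change (edgeR) of the 137 genes between tissues within C11, in bins along the horizontal axis, with the number of genes on the vertical axis and the median as a red line. Medians are 0.23 for UP against AB, 0.22 for UP against LB and -0.01 for LB against AB, and no gene passed the edgeR test. The fit shown has no replicate block.

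DESeq2 called 4 of the 137 genes in UP against AB, all higher in UP, with 0.53% of all genes it tested called as higher in UP. The 4 genes were picked out once these values were known. The DESeq2 fit and the edgeR fit quoted for them did not use the replicate number. With the number as a block, the edgeR adjusted p was 0.291 to 0.298 for the 4 genes. Cula0011301 had 1360, 1332 and 1658 counts in UP, 349, 258 and 230 in AB and 784, 263 and 262 in LB. Its 3 UP libraries, between 46.2 and 60.9 CPM, lay above the other 6. The log2 fold change of UP over AB was 2.41 (SE 0.53), with an adjusted p of 0.461 by edgeR and of 0.00415 by DESeq2.

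Cula0011630 had 308, 164 and 830 counts in UP, 66, 55 and 41 in AB and 213, 66 and 94 in LB. Its log2 fold change of UP over AB was 3.04 (SE 0.76), with an adjusted p of 0.470 by edgeR and of 0.00644 by DESeq2, and the UP libraries lay above the AB libraries but not above all LB libraries. With 1 library left out in turn, the log2 fold change ran between 1.97 and 3.43.

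For Cula0031003 there were 92, 173 and 187 counts in UP, 10, 41 and 35 in AB and 64, 24 and 49 in LB. The log2 fold change was 2.44 (SE 0.66), with an adjusted p of 0.485 by edgeR and of 0.0140 by DESeq2. NewGene_8105 had 569, 805 and 785 counts in UP, 155, 313 and 359 in AB and 236, 530 and 346 in LB. Its log2 fold change was 1.43 (SE 0.38), with an adjusted p of 0.472 by edgeR and of 0.0271 by DESeq2. In both genes the 3 UP libraries lay above the other 6.

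Separation of 1 tissue from the 6 other C11 libraries was rare. The 3 UP libraries lay above all others for 3 of the 137 genes, named above (2.11% of all genes tested), and below them for NewGene_17764, NewGene_3509 and NewGene_8880 (3.4% of all). The AB libraries lay above for NewGene_17291 (0.314% of all) and below for Cula0031496 (0.605% of all). The LB libraries lay above for NewGene_8645 and Cula0021760 (0.157% of all) and below for NewGene_2752 and NewGene_11152 (0.279% of all). These genes are named because their counts are 3 or fewer, after their values were seen.

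Cula0021760, for example, had 115, 170 and 63 counts in LB, 11, 17 and 41 in AB and 28, 39 and 26 in UP. The log2 fold change of LB over AB was 2.33 (SE 0.62), with an unadjusted p of 0.00541 and an adjusted p of 1.00 by edgeR.

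In edgeR, more genes were called between the replicate numbers of C11 than between its tissues, though number calls needed no minimum fold change. The mean of each tissue over its 3 libraries was subtracted for each gene. After this, same-numbered C11 libraries of different tissues deviated together, with correlations across genes of 0.243 to 0.712 in all 9 pairs. Differently numbered libraries ran between -0.516 and 0.117 in 18 pairs. The subtraction itself pushes these 18 down when the 9 are positive. It also removes the tissue, so the correlations do not compare number with tissue. In an edgeR F test of the number with tissue as a covariate, 14 of the 137 genes were called at an adjusted p under 0.05 (10.2%), against 7.51% of all genes tested. An unadjusted p under 0.05 was reached by 38 of the 137 (27.7%) and by 34.1% of all genes tested. With DESeq2, 37 of the 137 were called (27.0%), against 25.3% of all genes. Both shares of the 137 were near those of all genes. With any 1 library left out, between 0 and 3 of the 137 genes and between 0 and 813 of all genes were called, in fits with fewer degrees of freedom.

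Among the called genes number 3 was most often the highest, and over all called genes it was also most often the lowest. It had the highest fitted level for 10 of the 14 called genes (71.4%) and for 892 of the 1913 called among all genes (46.6%). Its fitted level was the lowest for 3 of the 14 (21.4%) and for 835 of the 1913 (43.6%). Its 3 libraries lay above all 6 others for 21 of the 137 genes (10.9% of all genes tested) and below them for 10 (11.5% of all). With the third UP library set aside, the remaining pair of number 3 lay above the other 6 for 22 of the 137 genes and for 16.7% of all tested. Number 1 lay above the others for 7 genes (5.5% of all) and below for 5 (6.71% of all), and number 2 above for 5 (4.01% of all) and below for 4 (3.28% of all).

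NewGene_3502 had 412, 598 and 368 counts in the AB, UP and LB libraries numbered 3, and 39, 23 and 39 in those numbered 1, with 34, 44 and 108 in those numbered 2. All 3 libraries of number 3 lay above the other 6. The log2 difference was 3.69 for number 3 minus number 1 and 3.11 for number 3 minus number 2 (edgeR, adjusted p = 0.0292).

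NewGene_17009 had 340, 736 and 587 counts in AB, UP and LB of number 3, and 36, 84 and 63 in number 1, with 54, 201 and 45 in number 2. The libraries of number 3 again lay above the rest, by 3.07 on the log2 scale over number 1 (edgeR, adjusted p = 0.0282). It was called in 3 of the 9 fits with 1 library left out, the most of the 14 genes.

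NewGene_13581 had 214, 621 and 308 counts in number 3, against 78, 72 and 47 in number 1 and 68, 82 and 45 in number 2 (AB, UP and LB). Number 3 exceeded number 1 by 2.34 on the log2 scale (edgeR, adjusted p = 0.0315).

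Cula0020467 ran the other way, with 26, 29 and 20 counts in number 3, 21, 30 and 21 in number 2 and 161, 92 and 143 in number 1. Number 1 lay above both others, with a log2 difference of -2.53 for number 3 minus number 1 and of -2.66 for number 2 minus number 1 (edgeR, adjusted p = 0.0315).

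Cula0012397 and Cula0003137, both among the 3 genes with the highest counts, were called with number 3 as the lowest. The log2 difference of number 3 minus number 1 was -1.28 for Cula0012397 (edgeR, adjusted p = 0.0319) and -2.62 for Cula0003137 (edgeR, adjusted p = 0.0479). Cula0016994 had 40, 39 and 43 counts in number 3, 93, 65 and 45 in number 2 and 154, 172 and 130 in number 1, and its log2 difference of number 2 minus number 1 was -1.39 and of number 3 minus number 2 was -0.61 (edgeR, adjusted p = 0.0445).

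The other called genes had number 3 highest. For Cula0022914, Cula0036209, NewGene_14064 and Cula0015914, which are named after their values were seen, number 3 exceeded number 1 by 3.05, 3.50, 2.91 and 1.61 on the log2 scale. NewGene_17959, also named afterwards, had 1042, 698 and 455 counts in number 3, 73, 206 and 64 in number 2 and 415, 393 and 312 in number 1. There number 2 was lowest, by 2.83 against number 3.

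**Figure D4:**
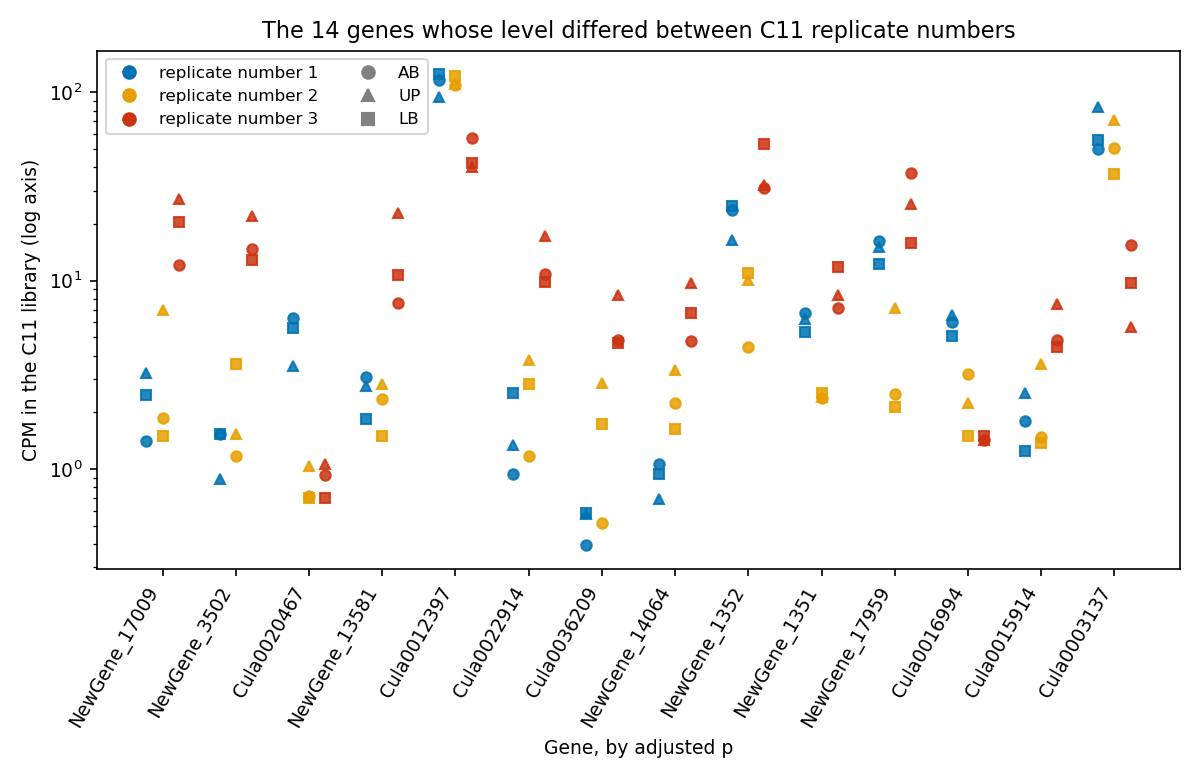
CPM of the 14 genes called between C11 replicate numbers, on a log axis, with 1 point per C11 library, coloured by replicate number and shaped by tissue, ordered by adjusted p. Number 3 (red) is highest for 10 genes, number 1 (blue) for 3 and number 2 (orange) for 1.

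Of the 137 genes, 2 pairs carry consecutive identifiers. Whether consecutive numbers mean adjacent positions is not stated. NewGene_1351 had 171, 69 and 202 counts in AB, 163, 70 and 229 in UP and 136, 76 and 337 in LB, in the order of the replicate numbers. NewGene_1352 had 607, 129 and 871 in AB, 430, 290 and 876 in UP and 638, 328 and 1513 in LB. In each tissue both were lowest in number 2 and highest in number 3.

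The count of NewGene_1352 was 1.87 to 4.69 times that of NewGene_1351 in the 9 libraries. Both were called between numbers, with log2 differences of number 3 minus number 2 of 2.21 for NewGene_1352 (edgeR, adjusted p = 0.0392) and 1.89 for NewGene_1351 (edgeR, adjusted p = 0.0409). Reads that the 2 loci share cannot be told apart here.

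Cula0020275 and Cula0020276 did not keep such a ratio. Cula0020275 had 45, 64 and 29 counts in AB, 53, 90 and 201 in UP and 77, 31 and 57 in LB. Cula0020276 had 57, 48 and 322 in AB, 64, 171 and 218 in UP and 58, 506 and 310 in LB. The ratio of Cula0020276 to Cula0020275 ran between 0.750 and 16.3.

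Silence in C1 was also met by genes that only some C11 libraries expressed. There were 2995 genes with no counts in C1 and a count in C11. In 18 of them, the 3 libraries of C11 number 1 had at least 10 counts each and the 6 libraries of numbers 2 and 3 had none. The counts of the 18 genes in number 1 ran from 10 to 4475. Such patterns were not counted among genes with counts in C1, so whether they go with silence in C1 was not tested. Cula0021240 had 4475, 155 and 866 counts in AB, UP and LB of number 1 and 0 in the other 15 libraries. Cula0013254 had 2724, 337 and 1076 in the same libraries and 0 elsewhere. These genes were chosen after their values were seen, and 5 of the 18 were NewGene loci.

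Another 8 genes had at least 10 counts in the 3 libraries of number 3 only, with 10 to 275 counts, and 4 of them were NewGene loci. NewGene_276 had 100, 16 and 275 counts in AB, UP and LB of number 3, and Cula0006370 had 126, 89 and 162. A single gene, NewGene_7013, was expressed in numbers 1 and 2 only, with 14 and 37 counts in AB, 17 and 60 in UP and 16 and 59 in LB. No gene was expressed in number 2 alone, in numbers 1 and 3 alone or in numbers 2 and 3 alone.

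The libraries of number 1 thus differed from those of numbers 2 and 3 in the detection of 18 genes that were also silent in C1. Those of number 3 differed from numbers 1 and 2 as well, with 8 such genes detected in number 3 only and 1 missing from it only. Whether the libraries of the 3 numbers come from trees of 1 genotype was not tested, and the C11 values above include all 3 numbers. With the clones exchanged, 1 gene without counts in C11 was expressed in C1 numbers 1 and 3 only, and 0 genes were expressed in 1 number of C1 alone.

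**Figure D5:**
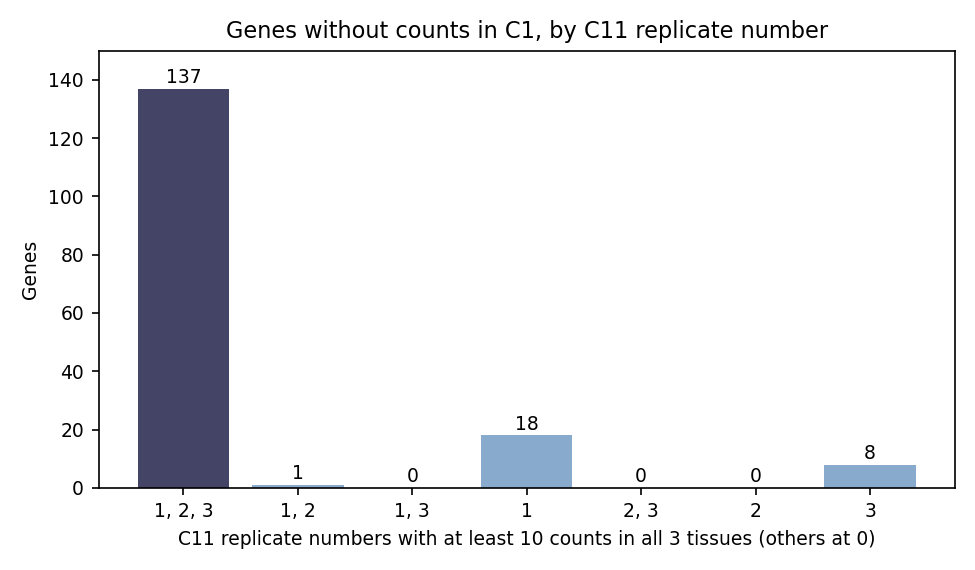
Number of genes without counts in C1, by the C11 replicate numbers in which all 3 tissues had at least 10 counts while the other numbers had 0. The 137 genes of all 3 numbers form the dark bar, beside 18 genes of number 1, 8 of number 3 and 1 of numbers 1 and 2.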

How the data were processed

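RNA was measured by paired-end RNA-seq of poly(A) RNA in 3 tissues of the clones C11 and C1. The authors aligned the reads to the reference genome with Hisat2 and deposited raw counts, whole numbers for each gene in each library. Which program counted the reads, whether it used strand and what it did with multi-mapping reads is not given in the sources used here. Counts of all 18 libraries were used as deposited. CPM were computed from the library totals multiplied by TMM factors, which were estimated over all 18 libraries.

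The 137 genes, the lists and the tests were chosen with earlier results of these data known. The 9 C11 libraries were fitted with edgeR 4.0.16 (limma 3.58.1, R 4.3.3; TMM, filterByExpr, quasi-likelihood tests, Benjamini-Hochberg over all genes tested). Tissue calls needed an FDR under 0.05 and a fold change of at least 2, and replicate number calls an FDR under 0.05 with tissue as a covariate. The main tissue fits, by edgeR and by DESeq2, did not pair libraries by replicate number. All 9 correlations of same-numbered C11 libraries exceeded 0.1, so an edgeR fit with the number as a block was run beside them. Alternatives were DESeq2 1.42.0, RLE size factors, no filter, a replicate block, all 18 libraries, left-out libraries and other minimum counts.

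Named genes were those the study names, the 3 with the highest median count, up to 3 called per direction, the 2 most and the 2 least variable, those at the limits of the rule and those with consecutive identifiers. Others are said to be named after their values were seen. Python 3.11.15, numpy 2.4.6, pandas 2.3.3 and matplotlib 3.10.9 were used. Intervals and floors cover counting error only.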

Additional observations from a re-analysis of the deposited data

How the results depend on the processing

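The number of genes that met the rule was 81 with a minimum of 20 counts and 190 with a minimum of 5, against 137. It was 163 with up to 3 counts allowed in C1, 105 with a minimum of 0.5 CPM, and 146 to 163 without 1 of the replicate numbers of C11 or C1. In the tissue contrasts the count of called genes among the 137 was 0 under every edgeR alternative run, the fit with the replicate block included, which changed no call. DESeq2 called 4 in UP against AB and 0 in the other contrasts. For the replicate number, DESeq2 called 37 genes, RLE size factors 14 and no filter 12. With 1 library left out the count ran between 0 and 3, and with 1 tissue left out it was 0. An unadjusted p under 0.05 was then reached by 32 of the 137 genes without AB (23.4%; 24.4% of all genes), 23 without UP (16.8%; 30.2%) and 19 without LB (13.9%; 12.1%). Without the third UP library the count was 3 of 137. None of the 14 genes called between numbers reversed its largest difference between numbers in these fits, nor did the 4 genes called by DESeq2 in UP against AB. Fewer libraries leave fewer degrees of freedom. Where the lowest count is near 10, membership depends on depth.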

Other observations

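The loci whose identifier number is 1 above or below that of a gene silent in C1 were looked at as values. Of 198 such neighbours that are not themselves among the 137 genes, 90 had at least 100 counts summed over the 9 C1 libraries. Another 42 had no counts in either clone, and 18 had counts in C11 and none in C1. In the whole table of 46723 genes, 11268 were at 0 throughout and 2995 were counted in C11 but not in C1. The 2995 include the 137 genes. Whether the neighbours differ from the whole table was not tested.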
